A study of Mus musculus with 10 samples.

Results

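Prrx1, Prrx2, Twist1, Twist2, Foxf1 and Foxf2 are transcription factor genes of general mesenchyme, and they form 3 pairs of paralogs. They were taken from the deposited count table by gene name, 6 of 54532 genes, and all 6 passed the low-count filter that left 18898 genes for testing. The study profiled poly(A) RNA of whole mouse pancreas at embryonic days 13.5 and 14.5 (E13.5 and E14.5) in embryos of the Fgf9 LacZ line, to examine what the secreted growth factor Fgf9 does in pancreas development. Control embryos were Fgf9 +/+ and +/- mixed, and the other group was Fgf9 -/-; both were kept on a C57BL/6J background. Each stage had 3 control libraries from pools of 6 to 12 pancreata and 2 Fgf9 -/- libraries from pools of 3 to 7. Whether pools of 1 group came from different litters is not in the labels, and p-values therefore reflect only how much these pools varied.

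PRRX1 and PRRX2 are paired-related homeodomain proteins of limb, facial and other connective tissue mesenchyme. TWIST1 and TWIST2 are basic helix-loop-helix (bHLH) proteins that bind E-box sequences in dimers with E proteins, and Id proteins compete for those partners. FOXF1 and FOXF2 are forkhead proteins of the mesenchyme around the gut and its derivatives, where hedgehog ligands from the epithelium induce their genes in the mouse. The pancreatic mesenchyme surrounds the epithelium and supplies it with growth signals.

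Total counts were 17736769 to 22798257 per library, and mitochondrial genes took 2.3 to 3.39% of them. Pdx1, a defining factor of pancreatic epithelium, was at 50.2 to 85.9 CPM in every library. Levels are given as CPM, counts scaled to a common library size after correction by the trimmed mean of M-values (TMM). Fgf9 itself averaged 15.3 ± 3.7 CPM in the 3 E13.5 controls and 6.61 ± 1.5 CPM (SD) in the 2 libraries labelled Fgf9 -/-. The E14.5 values were 9.79 ± 3.5 and 8.93 ± 3.9 CPM with overlap, so the Fgf9 -/- groups are called null-labelled below. Libraries E14.5 control 1 and E14.5 null 1 stood apart from their stage, with scores of -3.32 and -7.39 on a first principal component on which the other E14.5 libraries scored 39.2 to 47.2. Results for the members and for the genotype counts of each gene list were therefore also computed without the libraries numbered 1. Leaving them out in all groups, or in the null-labelled groups only, leaves 1 null-labelled library per stage. P-values and calls in those settings take no spread from null-labelled pools and do not measure their variation.

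Reads of paralogs can be split or shared, so the sequences of each pair were compared in GENCODE M21 transcripts (GRCm38). The longest runs of bases common to both members of a pair are shown as a measure of how alike the transcripts are. Read length and read sharing between paralogs were not examined.
Prrx1 and Prrx2, 19 bases: tcaacatggccaacagcat
Twist1 and Twist2, 23 bases: ctgcgcaagatcatccccacgct
Foxf1 and Foxf2, 41 bases: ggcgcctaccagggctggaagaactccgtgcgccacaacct
The Twist and Foxf runs lie in coding sequence of both genes, and the Prrx run is coding in Prrx2 but not wholly so in Prrx1. Coding sequences were 66.4% identical over 673 aligned bases in the Prrx pair, 86% over 335 in the Twist pair and 67.4% over 1101 in the Foxf pair. Twist2 carries another uncertainty. Of its exon bases, 46.5% overlap the antisense gene Gm29100, which held 10 to 41 counts per library. Whether reads were counted by strand is not given in the sources used here, and Twist2 values are uncertain for that reason.

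Prrx1 (ENSMUSG00000026586, chromosome 1, 163245119 to 163313710, minus strand) was lower in null-labelled pancreas. At E13.5 it was at 118, 81.3 and 78.6 CPM in the 3 controls and at 50.9 and 35.7 CPM in the 2 null-labelled libraries. The E14.5 controls were at 76.9, 71.1 and 65.7 CPM and the null-labelled libraries at 48.5 and 37.7 CPM. Every null-labelled library lay below every control of its stage, and the highest null-labelled value, 50.9 CPM, lay below the lowest control value of either stage, 65.7 CPM. Of all tested genes, 10.9% were lower without overlap at E13.5, 11.8% at E14.5 and 2.19% at both.

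Averaged over both stages, Prrx1 fell 1.88-fold, a log2 fold change of -0.91 (SE 0.147, 95% interval -1.23 to -0.59, edgeR quasi-likelihood adjusted p = 0.0083). It was the 1 member of 6 called in that comparison, in which 1.87% of genes were called and 0.418% were called lower. The difference was -1.1 at E13.5 (SE 0.21, 95% interval -1.55 to -0.64, edgeR adjusted p = 0.058) and -0.73 at E14.5 (SE 0.208, 95% interval -1.18 to -0.28, edgeR adjusted p = 0.23). Neither single stage passed the threshold of 0.05. With the replicate number as a block, both did, at -1.2 (edgeR adjusted p = 1.1e-05, 3% of genes called) and -0.79 (edgeR adjusted p = 0.00097, 2.46% of genes called). That fit leaves control 3 of each stage unpaired, so its estimates rest on the libraries numbered 1 and 2. Leaving out the 4 libraries numbered 1 gave a mean difference of -1.01, with 1 null-labelled library left per stage. In whole-organ pools, fewer cells of a type and less RNA per cell cannot be told apart, and this holds for each member.

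**Figure D1:**
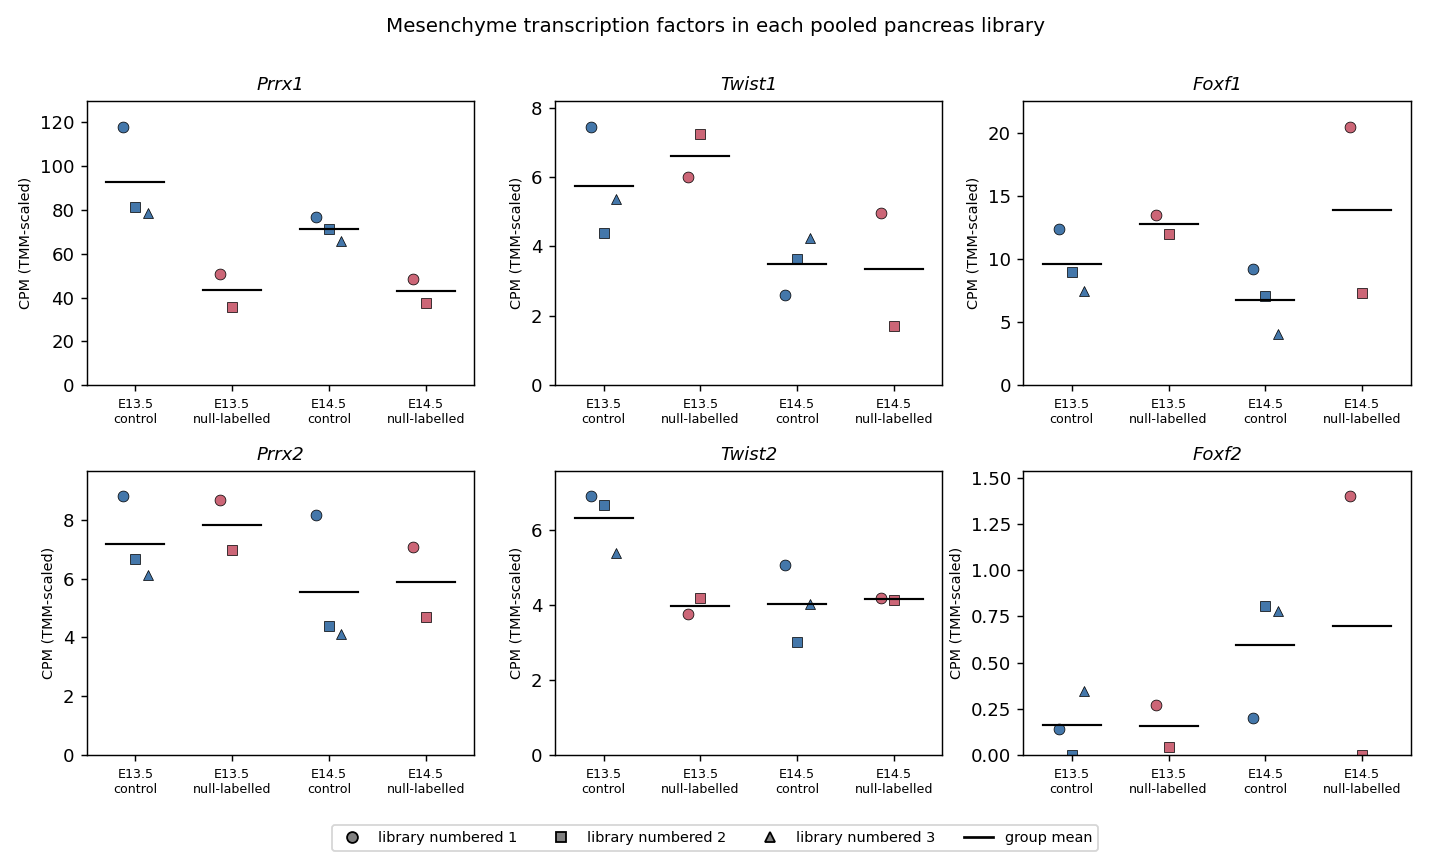
CPM (y axis) of each of the 6 genes in the 10 libraries by stage and group; blue points are controls, red points are null-labelled libraries, symbols give the library number and lines the group means. Prrx1 is the gene whose null-labelled points lie below all controls at both stages.

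Prrx2 (ENSMUSG00000039476, chromosome 2, 30834972 to 30881251, plus strand), the paralog of Prrx1, did not show this difference in CPM. It was at 8.8, 6.67 and 6.11 CPM in E13.5 controls and at 8.68 and 6.97 CPM in null-labelled libraries. At E14.5 the controls were at 8.18, 4.38 and 4.12 CPM and the null-labelled libraries at 7.09 and 4.69 CPM. The groups overlapped at both stages, and at each stage the highest value was that of a library numbered 1 from the controls. The mean difference was 0.099 on the log2 scale (95% interval -0.42 to 0.62, edgeR adjusted p = 0.93), an interval that does not reach the estimate for Prrx1.

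The ratio of Prrx1 to Prrx2 reads within each library, where scaling between libraries cancels, restates the levels of the pair. It is given as a description. The ratio was 13.4, 12.2 and 12.9 in E13.5 controls and 5.87 and 5.12 in null-labelled libraries. At the later stage it was 9.4, 16.2 and 15.9 in controls and 6.84 and 8.02 in null-labelled libraries. All 4 null-labelled libraries lay below all 6 controls, and E14.5 control 1 was the lowest control. The ratio was 2.06-fold lower on average, a log2 difference of -1.04 (-1.22 at E13.5 and -0.86 at E14.5). An exact permutation of genotype within stage gave p = 0.01, the smallest value that its 100 arrangements allow. It reuses the Prrx1 values and is no separate support for their fall.

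**Figure D2:**
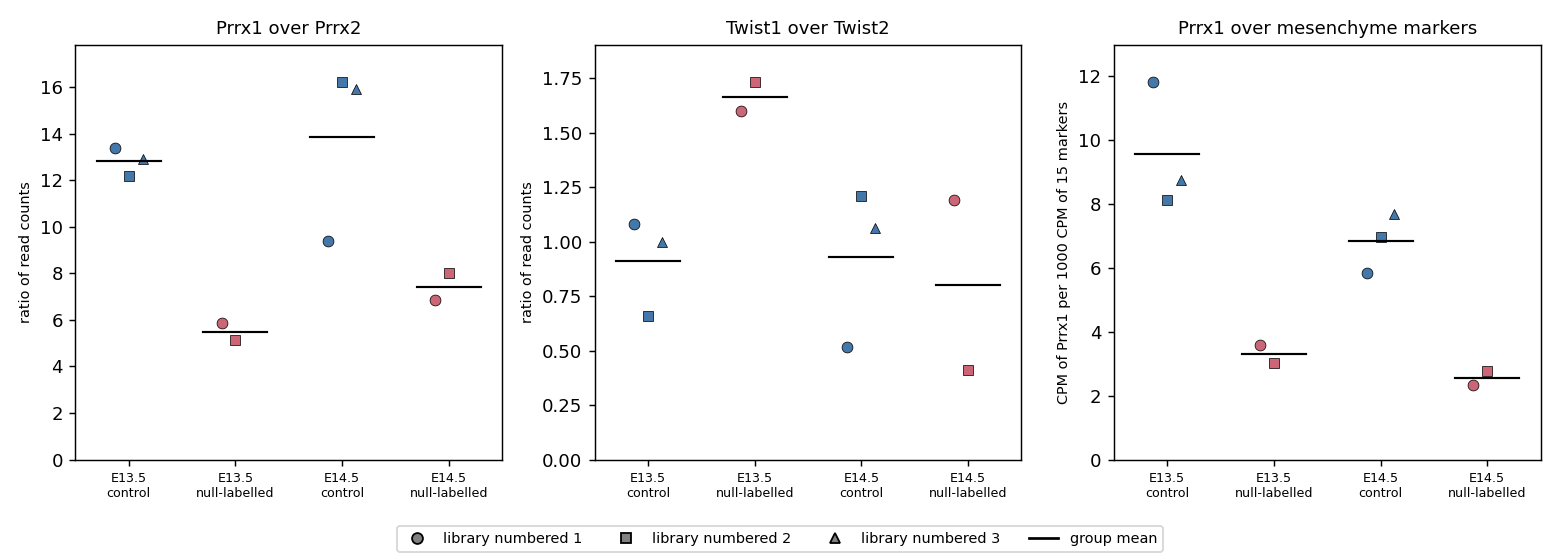
Read-count ratios of Prrx1 to Prrx2 (left) and Twist1 to Twist2 (middle), and Prrx1 CPM per 1000 CPM of 15 summed mesenchyme markers (right), in each library; colours, symbols and lines as in the plot of levels by library. The Prrx1 to Prrx2 ratio is 5.12 to 8.02 in null-labelled libraries and 9.4 to 16.2 in controls.

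The sequence before the start of Prrx1 is shown as context for the factor that fell. RefSeq promoter windows (GRCm38.p6) were found for 5 of the 6 members, all but Foxf1, and the 250 bases before each start were searched on both strands for 7 short motifs. Prrx1 held 1 match, to TAATTA, the core that paired-type homeodomain proteins bind, which is present in 4.84% of 32851 promoters. The 190 bases that lie before any annotated exon of Prrx1, chr1:163313711-163313900 on the minus strand, are shown with that match in capitals, beside the window of Twist1, chr12:33957421-33957670 on the plus strand, whose capitals mark a TATAAA match found in 12.4% of promoters.
Prrx1: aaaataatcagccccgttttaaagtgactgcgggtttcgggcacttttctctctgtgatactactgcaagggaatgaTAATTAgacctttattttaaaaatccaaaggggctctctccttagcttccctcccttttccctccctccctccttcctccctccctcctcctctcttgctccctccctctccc
Twist1: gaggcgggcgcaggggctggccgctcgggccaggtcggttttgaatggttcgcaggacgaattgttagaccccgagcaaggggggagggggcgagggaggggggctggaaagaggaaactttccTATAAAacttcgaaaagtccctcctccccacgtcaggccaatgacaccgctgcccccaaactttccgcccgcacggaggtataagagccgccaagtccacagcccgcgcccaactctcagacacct
The full Prrx1 window was 47.6% G and C, against a median of 52.4% over all promoters and 62.4 to 71.6% for the other 4 members. The letters CANNTG (E-box, 66.2% of promoters) matched once, in Foxf2. TGGGTGGTC (GLI, 0.225%), TGANTCA (AP-1, 6.75%), CCGGAAGT (ETS, 2.88%) and TGTTTAC (forkhead, 3.17%) were not in any of the 5 windows.

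Twist1 (ENSMUSG00000035799, chromosome 12, 33957671 to 33959829, plus strand) showed no genotype difference beyond its spread. It was at 7.45, 4.38 and 5.37 CPM in E13.5 controls and at 6 and 7.23 CPM in null-labelled libraries. By E14.5 the controls were at 2.61, 3.63 and 4.23 CPM and the null-labelled libraries at 4.97 and 1.7 CPM. The 2 null-labelled libraries at E14.5 lay on either side of all controls. The mean difference was 0.068 on the log2 scale (95% interval -0.58 to 0.71, edgeR adjusted p = 0.96), with 34 to 168 reads per library.

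Twist2 (ENSMUSG00000007805, chromosome 1, 91801461 to 91848028, plus strand) was at 6.89, 6.67 and 5.37 CPM in E13.5 controls and at 3.75 and 4.17 CPM in null-labelled libraries. Its E14.5 values were 5.07, 3 and 4.01 CPM in controls and 4.19 and 4.14 CPM in null-labelled libraries. The groups did not overlap at E13.5, with the null-labelled pair below the controls, as for 10.9% of tested genes. The E14.5 null-labelled libraries lay within the control range. The E13.5 difference was -0.67 on the log2 scale (SE 0.299, 95% interval -1.32 to -0.021, edgeR adjusted p = 0.74), and the E14.5 difference was 0.047 (95% interval -0.6 to 0.69, edgeR adjusted p = 0.99). The difference between those stages was 0.72 and was not called (edgeR adjusted p = 1).

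The ratio of Twist1 to Twist2 reads ranged over 0.657 to 1.08 for E13.5 controls and 1.6 to 1.73 for the null-labelled libraries, without overlap. The E14.5 ratio was 0.515 to 1.21 in controls and 0.41 to 1.19 in null-labelled libraries, with overlap. The log2 difference over both stages was 0.29 (0.9 at E13.5 and -0.32 at E14.5), with p = 0.52 by the same permutation of genotype within stage.

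Foxf1 (ENSMUSG00000042812, chromosome 8, 121084386 to 121088144, plus strand) was at 12.4, 8.96 and 7.45 CPM in E13.5 controls and at 13.5 and 12 CPM in null-labelled libraries. In the E14.5 libraries it was at 9.18, 7.09 and 4.06 CPM in controls and at 20.5 and 7.34 CPM in null-labelled libraries. The groups overlapped at both stages, and E14.5 null 1 was the highest of the 10 libraries. The mean difference was 0.72 on the log2 scale (SE 0.287, 95% interval 0.1 to 1.35, edgeR adjusted p = 0.31), and 0.26 (edgeR adjusted p = 0.81) without E14.5 null 1. At E14.5 alone it was 1.03 (SE 0.407, edgeR adjusted p = 0.46), and 0.11 (edgeR adjusted p = 0.98) without the same library. E14.5 null 1 also held the highest sum of 10 skeletal muscle markers, 235 CPM against 16 to 62.9 CPM in the other 9. It was highest too for smooth muscle (493 against 115 to 239 CPM) and mesenchyme markers (20700 against 8540 to 14200 CPM). The same held for liver (629 against 329 to 599 CPM) and mesothelium markers (350 against 183 to 340 CPM). The part of these in the Foxf1 value was not tested.

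Foxf2 (ENSMUSG00000038402, chromosome 13, 31625816 to 31631403, plus strand) was near the detection limit, with 0 to 25 reads per library. It was at 0.14, 0 and 0.348 CPM in E13.5 controls and at 0.268 and 0.043 CPM in null-labelled libraries. At E14.5 it was at 0.201, 0.807 and 0.779 CPM in controls and at 1.4 and 0 CPM in null-labelled libraries. The 2 E14.5 null-labelled libraries were the highest and the joint lowest of all 10, so no genotype difference was detectable at this depth (mean log2 difference 0.061, 95% interval -2.4 to 2.53, edgeR adjusted p = 0.99). A library with 0 reads still allows up to 3 counts.

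**Figure D3:**
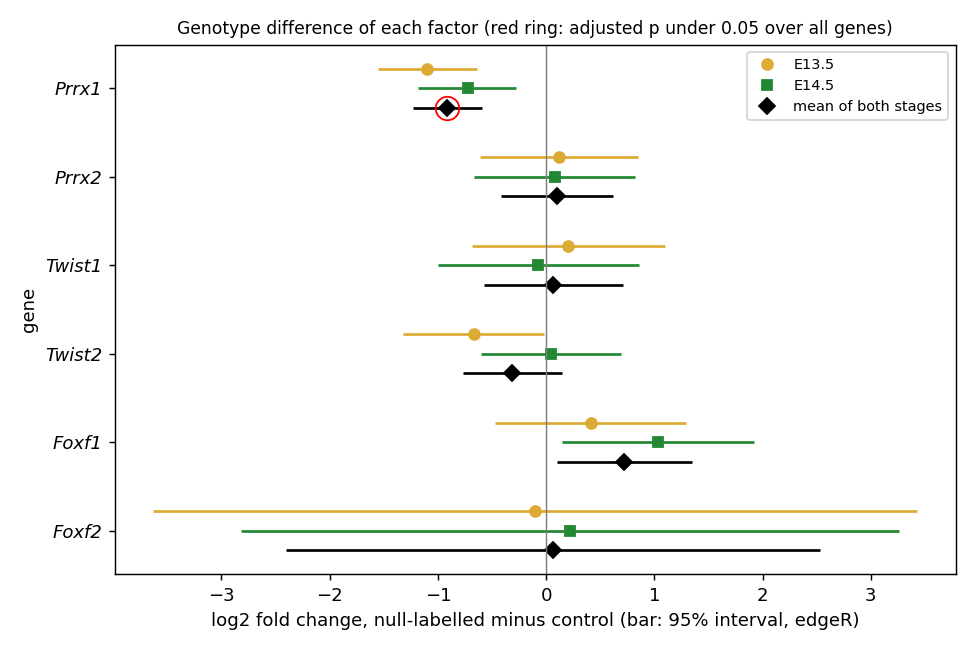
Log2 fold change, null-labelled minus control (x axis), with its 95% interval for each gene at E13.5, at E14.5 and averaged over both stages; a red ring marks an edgeR adjusted p under 0.05 over all genes. Prrx1 averaged over both stages, at -0.91, is the 1 ringed value, and the Foxf2 intervals are the widest.

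Within single stages, 0 of the 6 members were called by edgeR, where 0.307% of genes were called at E13.5 and 0.111% at E14.5. At an unadjusted p under 0.05 there were 2 at E13.5 (Prrx1 and Twist2) and 2 at E14.5 (Prrx1 and Foxf1), against 6.56% and 8.54% of all genes. DESeq2 and limma-voom each called 1 member at E13.5, Prrx1, where they called 1.49% and 0.355% of genes. At E14.5 they called 0 members, and 1.66% and 0.116% of genes. The genotype difference was not shown to change between stages for any member. In that comparison edgeR called 0 members and 0% of genes, 0 members and 454 genes had an unadjusted p under 0.05, and DESeq2 called 4 genes (0.0212%) of which 0 were members. For Prrx1 the change in the genotype difference was 0.37 on the log2 scale (95% interval -0.25 to 1, edgeR adjusted p = 1). Over the 6 members the median log2 difference was 0.0102 at E13.5, 0.063 at E14.5 and 0.064 averaged, against -0.0092, -0.019 and -0.02 over all tested genes.

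From E13.5 to E14.5 none of the 6 was called in controls (1.12% of genes called) or in null-labelled libraries (0.249%). The 2 comparisons share no libraries with each other, but each shares its libraries with the genotype comparisons. In controls Prrx1, Twist1 and Twist2 were lower at E14.5 without overlap, as were 10.6% of genes, with log2 differences of -0.38 (edgeR adjusted p = 0.34), -0.72 (edgeR adjusted p = 0.4) and -0.65 (edgeR adjusted p = 0.25). Twist2 was the 1 member with an unadjusted p under 0.05 in controls, as 15.5% of genes had. In null-labelled libraries Prrx1 differed by -0.0067 between stages (43.3 ± 11 and 43.1 ± 7.7 CPM, SD, n = 2 each), and Twist1 was lower without overlap (-0.99, edgeR adjusted p = 0.37), as were 21.3% of genes. DESeq2 called 0 members in either stage comparison, where it called 6.8% of genes in controls and 4.48% in null-labelled libraries.

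Levels were compared between members per kilobase of merged GENCODE exons. In E13.5 controls the order was Prrx1 at 8.36 ± 2, Foxf1 at 3.98 ± 1.1, Prrx2 at 3.67 ± 0.72, Twist1 at 3.52 ± 0.96, Twist2 at 1.99 ± 0.26 and Foxf2 at 0.0688 ± 0.074 CPM per kb (SD, n = 3). Foxf1, Prrx2 and Twist1 did not differ beyond their spread, whereas Prrx1 lay above and Twist2 below them in every E13.5 control library. In E13.5 null-labelled libraries Prrx1 was at 3.91 ± 0.98 CPM per kb, within the ranges of Prrx2 (3.99 ± 0.62) and Twist1 (4.06 ± 0.53) and below Foxf1 (5.3 ± 0.44, SD, n = 2 each). At E14.5 Prrx1 was at 6.44 ± 0.51 in controls and 3.89 ± 0.69 CPM per kb in null-labelled libraries, and Foxf1 at 2.81 ± 1.1 and 5.77 ± 3.9. The 2 null-labelled Foxf1 values were 8.5 in E14.5 null 1 and 3.04 CPM per kb in E14.5 null 2, and in the latter Prrx1 was still above Foxf1, at a ratio of 1.12 per length. The Prrx1 exons merge to 11066 bases, and on its longest transcript of 6527 bases Prrx1 was at 14.2 and 6.63 CPM per kb at E13.5, the highest of the 6 in both groups. The place of Prrx1 in the null-labelled order thus depended on the length used and, at E14.5, on the library.

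Markers of the mesenchyme did not fall in null-labelled pancreas. The 15 mesenchyme markers summed to 8970 to 10000 CPM for E13.5 controls and 11800 to 14200 CPM for null-labelled libraries, and to 8540 to 13200 and 13600 to 20700 CPM at E14.5. Of these 15, 14 had a positive log2 difference at each stage, and averaged over both stages 3 rose: the proteoglycan genes Lum (1.52, edgeR adjusted p = 0.00011) and Dcn (1.22, edgeR adjusted p = 0.00094) and the secreted glycoprotein gene Fstl1 (0.49, edgeR adjusted p = 0.033). With the replicate block 11 of the 15 rose, and without the 2 null-labelled libraries numbered 1 there were 2, Lum and Dcn. Relative to 1000 CPM of these markers, Prrx1 ranged over 8.13 to 11.8 for E13.5 controls and 3.03 to 3.6 for null-labelled libraries, and at 5.84 to 7.69 and 2.34 to 2.77 at E14.5. The groups did not overlap at either stage. On this scale Prrx2 was also lower without overlap at both stages, at 0.667 to 0.885 in E13.5 controls against 0.592 to 0.613, and at 0.429 to 0.621 against 0.342 to 0.346 at E14.5. Per 1000 CPM of markers Twist2 averaged 0.653 ± 0.049 and 0.31 ± 0.064 in the E13.5 groups, without overlap, and 0.383 ± 0.088 and 0.254 ± 0.073 in the E14.5 groups, with overlap. For Foxf1 the E13.5 means were 0.992 ± 0.23 and 0.99 ± 0.047, followed by 0.623 ± 0.13 and 0.766 ± 0.32 for the later stage (SD, n = 3 and 2). The markers divided by were themselves higher in null-labelled libraries, which lowers each ratio there, and no test was made of these ratios. Abundant collagen genes weigh most in the sum, such as Col3a1 with a mean of 2320 CPM in E13.5 controls. Pdgfra and Pdgfrb, with means of 179 and 145 CPM there, weigh little. The share of all tested genes lower without overlap on this scale was not computed, and the shares given for CPM do not apply to it.

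Markers of other cell types moved with genotype too, with calls given for the mean of both stages. Smooth muscle markers summed to 115 to 166 CPM over all controls and 199 to 493 CPM over null-labelled libraries, and 4 of 8 rose. Among these were Acta2 (1.82, edgeR adjusted p = 0.00055) and Cnn1 (2.83, edgeR adjusted p = 0.013). At E14.5 Cnn1 was at 0.461 to 1.66 CPM in controls and at 2.8 and 20.3 CPM in the 2 null-labelled libraries. Cnn1 was not among the markers that rose without the 2 null-labelled libraries numbered 1, given below. Liver markers, with 6 of 10 risen, summed to 329 to 450 and 537 to 629 CPM. The most abundant of them, Ttr, did not rise. Its control and null-labelled means were 279 and 276 CPM at E13.5 and 322 and 274 CPM at E14.5. Of 9 tested skeletal muscle markers 3 rose. The skeletal muscle sums were higher only in the null-labelled libraries numbered 1, at 62.9 and 235 CPM, while E13.5 null 2 and E14.5 null 2, at 21.8 and 26.3 CPM, lay within the control range of 16 to 30.7 CPM. Of 6 mesothelium markers 1 rose (Msln) and 1 fell (Lrrn4), and of 8 endothelium markers 1 rose (Tie1). Epithelium markers, 0 of 9 called, summed to 1600 to 3170 CPM in controls and 1710 to 2810 CPM in null-labelled libraries. Without the 2 null-labelled libraries numbered 1, 2 smooth muscle, 0 liver, 0 skeletal muscle and 0 endothelium markers rose. Without all 4 libraries numbered 1 these counts were 4, 4, 1 and 1. These counts are of rises only. The skeletal muscle marker Myh8 was lower in both settings, at -1.91 without the null-labelled number 1s and -1.82 without all 4. Under the replicate block 5 skeletal muscle and 2 endothelium markers rose, and of the mesothelium markers 2 rose and 3 fell. The part of these cell types in the Prrx1 difference was not tested.

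Genes that work with each pair were examined from lists of their pathways, averaged over both stages. Among paired-type homeobox relatives, 2 of 5 were expressed enough to test. Alx4, a homeobox factor of limb and facial mesenchyme, was at 10.5 ± 2.4 and 2.76 ± 0.42 CPM at E13.5 in controls and null-labelled libraries, and at 4.24 ± 1.4 and 2 ± 0.57 CPM at E14.5 (SD, n = 3 and 2). Over both stages Alx4 fell, with a log2 difference of -1.51 (SE 0.257, edgeR adjusted p = 0.011). Alx4 was lower with no overlap at either stage, as were 2.19% of tested genes. It did not pass without the 2 null-labelled libraries numbered 1 (-1.6, edgeR adjusted p = 0.07). Shox2 differed by 0.84 (edgeR adjusted p = 0.54).

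The epithelial-mesenchymal transition factors share the TWIST proteins' known role in that transition. Of 4 tested, 1 fell and 0 rose. Zeb1, a zinc finger repressor, was at 84.3 to 117 CPM in E13.5 controls and 60.2 to 70 CPM in null-labelled libraries, and at 68.8 to 92.7 and 54 to 60.3 CPM at E14.5. Its difference was -0.53 (SE 0.12, edgeR adjusted p = 0.045), and -0.63 (edgeR adjusted p = 0.14) without the 2 null-labelled libraries numbered 1. Snai2, Snai1 and Zeb2 differed by 0.35, -0.35 and 0.21 (edgeR adjusted p = 0.35, 0.41 and 0.67).

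Of the 13 bHLH partners and Id inhibitors, 0 were called by edgeR, with a median log2 difference of 0.14. The abundant E protein genes Tcf3 and Tcf12 had log2 differences of -0.05 (edgeR adjusted p = 0.91) and -0.19 (edgeR adjusted p = 0.37), and the inhibitor gene Id2 had one of 0.0084 (edgeR adjusted p = 0.99). With the replicate number as a block, where 5.83% of genes were called, 3 rose and 1 fell. The risen ones included Hand1, a bHLH factor (3.03, edgeR adjusted p = 0.00033), and Id3 (0.48, edgeR adjusted p = 0.0013). The fallen one was the E protein gene Tcf4 (-0.3, edgeR adjusted p = 0.012). Without the block and the 2 null-labelled libraries numbered 1, Hand1, Id3 and Tcf4 differed by 2.43, 0.325 and -0.339. With 1 null-labelled library left per stage, these are sizes only and do not show that the block's calls hold. Hand1 was low in controls, at 0.143 to 2.05 CPM at E13.5 and 0.519 to 9.13 CPM at E14.5. Its null-labelled libraries were at 16.1 to 25.9 and 5.39 to 16.7 CPM, with overlap at E14.5.

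Of 13 hedgehog pathway genes 12 were tested, all but the ligand gene Shh, and 0 were called by edgeR, with a median log2 difference of 0.13, whereas under the replicate block 1 rose and 1 fell. The receptor component gene Smo differed by -0.061 (edgeR adjusted p = 0.88) and the co-receptor gene Gas1 by -0.075 (edgeR adjusted p = 0.86). Gli1, the transcription factor gene that hedgehog signalling induces, was looked at after its values were seen. Its range was 1.71 to 5.07 CPM for E13.5 controls and 6.93 to 7.98 CPM for null-labelled libraries. At E14.5 the ranges were 2.19 to 6.42 and 9.99 to 18.2 CPM, without overlap at either stage. Of all tested genes, 12.7% were higher without overlap at E13.5, 11.9% at E14.5 and 4.16% at both. The mean Gli1 difference was 1.43 (SE 0.331, edgeR adjusted p = 0.05, not under the threshold). With the replicate block it was 1.65 (edgeR adjusted p = 0.00018). It was 1.13 without the 2 null-labelled libraries numbered 1, and 1.42 without all 4 libraries numbered 1. Both settings leave 1 null-labelled library per stage, and these sizes do not show that the block's call of Gli1 holds.

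Foxf1 and Foxf2 lie in clusters with other forkhead genes. The start of Fendrr, a long noncoding RNA gene, is 1276 bases from that of Foxf1 on the opposite strand, and Foxc2 and Foxl1 start 31785 and 43554 bases away. Of 6 cluster neighbours tested, 0 were called by edgeR, and the median log2 difference was 0.54, against -0.02 over all genes. Foxc2 differed by 1.2 (SE 0.308, edgeR adjusted p = 0.079), Fendrr by 0.59 (SE 0.542, edgeR adjusted p = 0.76) and Foxc1, near Foxf2, by 0.85 (SE 0.259, edgeR adjusted p = 0.15). Mthfsd and Gmds, neighbours that encode no forkhead protein, differed by -0.091 and -0.012 (edgeR adjusted p = 0.81 and 0.99). Without the 2 null-labelled libraries numbered 1 the median of the neighbours was 0.229, and Fendrr reversed to -0.492. Without all 4 libraries numbered 1 the median was 0.272 and Fendrr differed by 0.267.

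**Figure D4:**
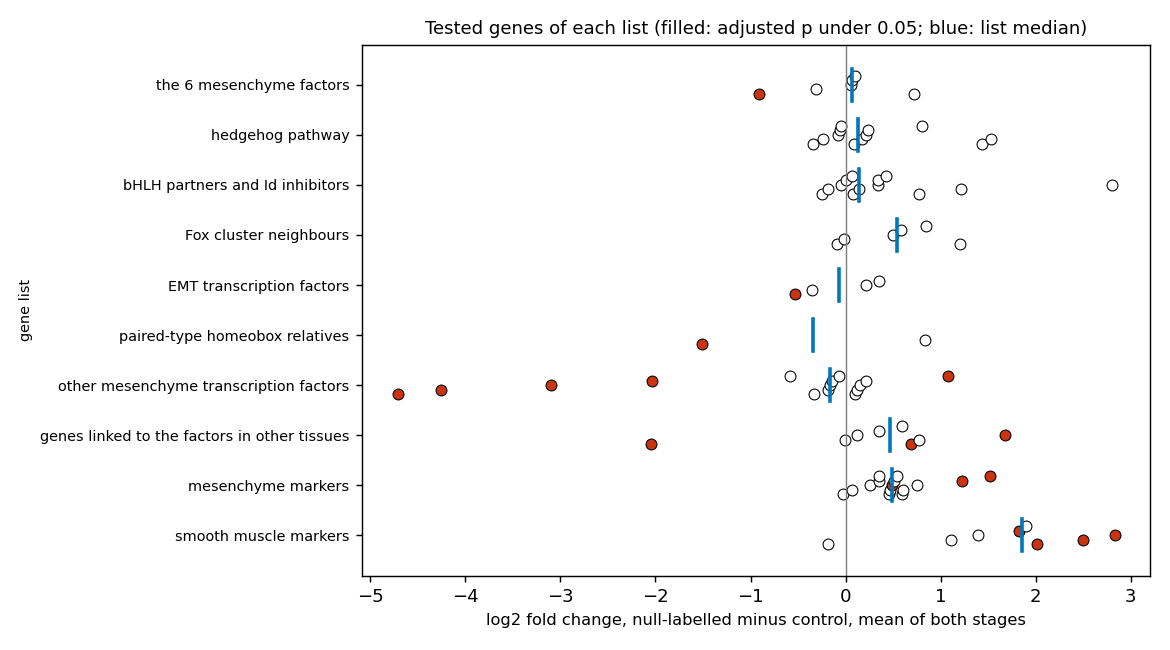
Log2 fold change averaged over both stages (x axis) of each tested gene in 10 lists (y axis); filled points had an edgeR adjusted p under 0.05, and blue bars are list medians. The members scatter around a median of 0.064 with Prrx1 filled at -0.91, while the other mesenchyme transcription factors hold 4 filled points on the left and 1 on the right.

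Among 15 other mesenchyme transcription factor genes, 4 fell and 1 rose. Those that fell were Tlx1 (-4.71, edgeR adjusted p = 5e-05), Nkx2-5 (-4.26, edgeR adjusted p = 0.011), Barx1 (-3.1, edgeR adjusted p = 9.5e-07) and Nkx3-2 (-2.04, edgeR adjusted p = 0.0047), homeobox factors of spleen, stomach and pancreas mesenchyme. The nuclear receptor gene Nr2f1 rose (1.08, edgeR adjusted p = 0.021). Without the 2 null-labelled libraries numbered 1 these 4 still passed and Nr2f1 did not (0.89, edgeR adjusted p = 0.18). With the replicate block 6 of the 15 fell and 1 rose. The Prrx1 difference of -0.91 was smaller in size than each of these 4. Of 8 genes tied to these factors in other tissues, 2 rose and 1 fell. The matrix genes Tnc (1.68, edgeR adjusted p = 0.031), a known target of PRRX1, and Postn (0.69, edgeR adjusted p = 0.0091), a known target of TWIST1, rose, and the ligand gene Wnt5a fell (-2.05, edgeR adjusted p = 2e-04). Without the 2 null-labelled libraries numbered 1 Wnt5a still passed, and Tnc and Postn did not (edgeR adjusted p = 0.29 and 0.11). The replicate block gave 4 that rose and 1 that fell.

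Profiles over the 10 libraries were compared by the root mean square difference of centred log2(CPM + 0.5) values, among 12130 genes with a mean of at least 5 CPM. Nearest to Prrx1 were the collagen genes Col23a1 (0.17) and Col26a1 (0.201) and the dystrophin-related gene Drp2 (0.191), where the median gene lay at 0.551. Col23a1 was at 86.7 to 117 CPM in E13.5 controls, 36.9 to 46.9 CPM in E13.5 null-labelled libraries, and 57.2 to 72.7 and 33.1 to 58.7 CPM at E14.5. Col23a1 overlapped at E14.5, where Prrx1 did not. Col26a1 overlapped there too, at 55.6 to 77.2 CPM in controls and 37.3 to 60.4 CPM in null-labelled libraries. Drp2, like Prrx1, was lower without overlap at both stages, as were 2.19% of tested genes. Its controls and null-labelled libraries were at 11.8 to 15.1 and 6.8 to 10.5 CPM at E13.5. The E14.5 ranges were 10.5 to 13.1 and 5.89 to 7.7 CPM. Among the members, Twist2 was nearest to Prrx1 (0.406, with 2.54% of candidate genes closer) and Foxf1 farthest (0.832).

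The nearest profiles to the other members were Plekhg2, Pdzd4 and 2500004C02Rik for Prrx2 (0.0887 to 0.113), Rasl10b, Chst11 and Tstd3 for Twist1 (0.279 to 0.298), and Lmo4, Mipol1 and Nkx2-3 for Twist2 (0.112 to 0.168). For Foxf1 they were Sdk1, Sv2c and Crispld2 (0.178 to 0.202), and for Foxf2 Ndufa1, Cox11 and Fmc1 (0.331 to 0.351). Counting error alone was up to 17.1% of a library's value for Twist1 and up to 100% for Foxf2, and its part in these distances was not tested.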

How the data were processed

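Poly(A) RNA of pooled whole pancreas was sequenced, and the authors deposited raw read counts per gene for 10 libraries. TopHat, HTSeq and DESeq2 with the mm10 build were used per the submitters' processing notes, with no versions or strand setting in the sources used here. The edgeR 4.0.16 quasi-likelihood F test (R 4.3.3, TMM, a mean for each of 4 groups, 6 residual degrees of freedom) was applied to 18898 genes that passed a filter on low counts within groups and held 99.91% of the counts. Adjustment followed Benjamini-Hochberg over these genes, at 0.05. A standard error is the log2 fold change over the square root of F. Alternatives used DESeq2 1.42.0, limma 3.58.1, another normalization, unfiltered genes, the compared groups alone, the replicate number as a block, and left-out libraries. Gene lists were also counted without the libraries numbered 1, chosen after seeing the data. Scripts were tested on simulated data.

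Same-numbered control and null-labelled libraries deviated together over genes, with r of 0.41 and 0.17 in the E13.5 libraries and 0.45 and 0.24 in the E14.5 ones. With 2 null-labelled libraries per stage, their deviations are mirror images, so the second value of each stage is not independent of the first, and null 2 correlated more with control 3 (0.29 and 0.32). The numbers were taken to pair libraries for genotype on this limited ground, and the block is an alternative. That block leaves 2 residual degrees of freedom, with prior degrees of freedom of 13.5 against 6.31 without it. Control 3 of each stage is alone in its block and adds nothing to the genotype difference. The control values between stages were 0.36, 0.066 and 0.19, so no pairing was assumed there. Members, lists and tests were chosen with earlier results of these data known, and counts over a list are descriptions. Named are all members, up to 4 called genes per list by size of change or otherwise up to 2 abundant ones, and the 3 nearest profiles per member. Gli1, Hand1, Id2, Id3, Tcf4, Foxc1, Foxc2, Foxl1, Fendrr, Shox2, Snai1, Snai2, Zeb2, Msln, Lrrn4, Tie1, Myh8, Shh and Pdx1 were named after their values were seen. So were Ttr, Col3a1, Pdgfra and Pdgfrb. Lengths are GENCODE M21 exons, since the counts carry no length, and 137 of 137 list genes matched. Counting error is Poisson, and limits at 0 reads cover counting error only.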

Additional observations from a re-analysis of the deposited data

How the results depend on the processing

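The fall of Prrx1 averaged over both stages held its direction and stayed past the threshold under every alternative run, at -0.79 to -1.15 with edgeR, DESeq2 or limma-voom adjusted p = 2.3e-12 to 0.041. With 1 library left out it was -1.04 to -0.79. Without the libraries numbered 1, or without 1 null-labelled library, a null-labelled group keeps 1 library. Those fits measure no variation among the pools of that group. At E13.5 Prrx1 also passed by DESeq2 (adjusted p = 0.00015) and limma-voom (adjusted p = 0.041). Prrx1 passed too with the replicate block (edgeR adjusted p = 1.1e-05), no filter (edgeR adjusted p = 2.3e-08) or only the groups compared (edgeR adjusted p = 0.041). It did not pass with upper quartile normalization (edgeR adjusted p = 0.11), RLE size factors (edgeR adjusted p = 0.056) or without the null-labelled number 1s (edgeR adjusted p = 0.071). With 1 library left out it was -1.37 to -0.86, and passed without E14.5 control 1, E14.5 null 1 or E14.5 null 2 (edgeR adjusted p = 0.035, 0.029 and 0.03). At E14.5 it passed with the replicate block and with no filter (edgeR adjusted p = 0.0014). With 1 library left out the E14.5 difference was -0.92 to -0.55.

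The number of members called was 0 at each stage and 1 averaged over both. Counts given below without the number 1 libraries rest on 1 null-labelled library per stage. At E13.5 it was 1 with the replicate block, DESeq2, limma-voom, no filter, only the groups compared or all number 1 libraries left out, and 0 to 1 with 1 library left out. At E14.5 it was 1 with the replicate block or without all number 1 libraries, 2 with no filter, and 0 with 1 library left out. Over both stages it was 2 with no filter, where Foxf1 also passed (edgeR adjusted p = 0.0075), and 1 to 2 with 1 library left out, since Foxf1 passed without E14.5 null 2 (1, edgeR adjusted p = 0.045). Foxf1 ran from 0.26 (without E14.5 null 1, edgeR adjusted p = 0.81) to 1 in these fits. With no filter edgeR's prior degrees of freedom went from 6.31 to infinite. From E13.5 to E14.5 in null-labelled libraries Twist1 differed by -2.09 without all number 1 libraries. That compares 1 library (7.23 CPM) with 1 library (1.7 CPM) and measures no spread among null-labelled pools. The replicate block changed no other call of a member. The Prrx1 to Prrx2 ratio difference was -1.15 without all number 1 libraries and -1.17 to -0.97 with 1 library left out. The Twist1 to Twist2 difference was -0.19 without all number 1 libraries and -0.094 to 0.67 with 1 library left out. Prrx1 in E13.5 controls was 14.2 CPM per kb on its longest transcript, against 8.36, and 7.22 to 8.99 with 1 control left out.

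For genotype at E13.5, edgeR called 58 genes in all, against 566 with the replicate block, 254 by DESeq2, 35 with upper quartile normalization, 459 with no filter, 197 with only the groups compared, 26 without the null-labelled number 1s and 373 without all number 1s, and 7 to 128 with 1 library left out. For genotype at E14.5, edgeR called 21 genes in all, against 464 with the replicate block, 290 by DESeq2, 12 with upper quartile normalization, 547 with no filter, 2 with only the groups compared, 13 without the null-labelled number 1s and 260 without all number 1s, and 2 to 259 with 1 library left out. For genotype averaged over both stages, edgeR called 354 genes in all, against 1102 with the replicate block, 753 by DESeq2, 963 with no filter, 101 without the null-labelled number 1s and 733 without all number 1s, and 140 to 679 with 1 library left out. For the difference of genotype between stages, edgeR called 0 genes in all, against 13 with the replicate block, 4 by DESeq2, 51 with no filter and 20 without all number 1s, and 0 with any 1 library left out. For stage in controls, edgeR called 211 genes in all, against 1607 with the replicate block, 1085 by DESeq2, 57 by limma-voom, 1292 with no filter, 330 with only the groups compared, 397 without the null-labelled number 1s and 2289 without all number 1s, and 0 to 1210 with 1 library left out. For stage in null-labelled libraries, edgeR called 47 genes in all, against 987 with the replicate block, 650 by DESeq2, 29 by limma-voom, 888 with no filter, 19 with only the groups compared, 21 without the null-labelled number 1s and 1465 without all number 1s, and 0 to 266 with 1 library left out.

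Directions that reversed, on the log2 scale, all belonged to differences that did not pass, and the cause was not tested. Prrx2 at E13.5 (0.119) was -0.0449 without the null-labelled number 1s, and -0.04 to 0.29 with 1 library left out. Foxf2 at E13.5 (-0.0985) was 1.22 with the replicate block and 0.217 by limma-voom, and -1.77 to 1.03 with 1 library left out. Prrx2 at E14.5 (0.0785) was -0.0614 with the replicate block and -0.249 without the null-labelled number 1s, and -0.249 to 0.468 with 1 library left out. Twist1 at E14.5 (-0.0707) ran from -1.04 to 0.512 with 1 library left out. Twist2 at E14.5 (0.0473) ran from -0.125 to 0.248 with 1 library left out. Foxf2 at E14.5 (0.22) was -0.277 with the replicate block, -1.57 by limma-voom, -6.59 without the null-labelled number 1s and -7 without all number 1s, and -6.58 to 1.23 with 1 library left out. Prrx2 over both stages (0.0988) was -0.0202 with the replicate block and -0.147 without the null-labelled number 1s, and -0.0649 to 0.293 with 1 library left out. Twist1 over both stages (0.0678) was -0.0078 by limma-voom, -0.352 without the null-labelled number 1s and -0.322 without all number 1s, and -0.415 to 0.359 with 1 library left out. Foxf2 over both stages (0.0609) was -0.679 by limma-voom, -4.18 without the null-labelled number 1s and -4.43 without all number 1s, and -3.34 to 0.626 with 1 library left out. Prrx2 in the difference between stages (-0.0405) was 0.0132 without all number 1s, and -0.368 to 0.349 with 1 library left out. Twist1 in the difference between stages (-0.277) ran from -1.24 to 0.305 with 1 library left out. Foxf1 in the difference between stages (0.624) was -0.215 without the null-labelled number 1s and -0.161 without all number 1s, and -0.3 to 1.19 with 1 library left out. Foxf2 in the difference between stages (0.319) was -1.5 with the replicate block, -1.79 by limma-voom, -4.83 without the null-labelled number 1s and -5.14 without all number 1s, and -6.49 to 2 with 1 library left out. Prrx1 from E13.5 to E14.5 in null-labelled libraries (-0.00672) was 0.002 with the replicate block, 0.00151 by DESeq2, 0.0106 by limma-voom, 0.00169 with RLE size factors, 0.0742 without the null-labelled number 1s and 0.0748 without all number 1s, and -0.246 to 0.26 with 1 library left out. Twist2 from E13.5 to E14.5 in null-labelled libraries (0.0713) was -0.0138 without the null-labelled number 1s and -0.0132 without all number 1s, and -0.0145 to 0.148 with 1 library left out. Foxf1 from E13.5 to E14.5 in null-labelled libraries (0.121) was -0.0024 with the replicate block, -0.0833 by limma-voom, -0.718 without the null-labelled number 1s and -0.717 without all number 1s, and -0.803 to 0.684 with 1 library left out. Foxf2 from E13.5 to E14.5 in null-labelled libraries (2.16) was -2.99 without the null-labelled number 1s and -2.98 without all number 1s, and -4.66 to 3.82 with 1 library left out. Fitted values below -2 for Foxf2 rest on libraries with 0 reads and are no bound. Over the members 259 single values kept direction and side of the threshold, 38 reversed and 12 passed newly, not counting left-out libraries. Fitting only the groups compared was not run for genotype over both stages or between stages, where all groups are compared. Read counts of 0 to 25 limit Foxf2, and 34 to 189 limit Prrx2, Twist1 and Twist2.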
